A study of Mus musculus with 4 samples.

Results

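Tumor-associated macrophages (TAMs) of wild type (WT) C57BL/6 mice bearing B16-F10 melanomas were profiled by RNA-seq, and transcript abundance is described across all genes in the 2 WT libraries of 4 in the series. Both libraries were chosen by their genotype label alone, and no value was used to choose them. B16-F10 cells, a melanoma line that grows in this strain, were injected under the skin of the abdomen of mice aged 6 to 8 weeks, and TAMs positive for CD45, CD11b and F4/80 were sorted from the tumors 16 days later. The WT mice were littermate controls of mice that lack Trim24 in cells expressing LysM-Cre, and whether they carried a floxed Trim24 allele or the Cre is not given in the sources used here. Nor do those sources say whether a library came from 1 mouse or from pooled mice, so the spread between the libraries may be partly technical. The expected counts, the number of reads that RSEM assigned to a gene, summed to 4817292 in WT replicate 1 and 4476122 in WT replicate 2. Levels are given as FPKM, the fragment density per transcript length scaled to the library total, so that genes of unequal length can be compared. Where 2 values follow a gene, they are the FPKM in WT replicates 1 and 2 in that order. With 2 libraries of 1 group no test was made, and both values stand in place of a mean and its error.

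Macrophages take up dying cells and debris through scavenger and complement receptors, digest them in lysosomes and present the peptides on major histocompatibility complex (MHC) molecules. Growth through the receptor of colony stimulating factor 1 keeps them alive, and the transcription factor PU.1 sets much of their program. In tumors they are fed by blood monocytes that follow chemokines such as CCL2, and they are known for secreting chemokines, matrix proteins and proteases. Interleukin 4 (IL-4), acting through STAT6, induces an alternative state called M2, which the study examined.

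A gene was called expressed where its FPKM was 1 or more in both libraries. The deposited tables list only genes with an FPKM of 0.01 or more, and a gene in neither table is said to have no entry, which does not show that it was silent. Of 15761 genes listed in either library, 13731 were listed in both, 871 in replicate 1 alone and 1159 in replicate 2 alone. 10646 genes were expressed, of which 5431 were at FPKM 10 or more in both libraries, 860 at 100 or more and 51 at 1000 or more. Among 21900 protein-coding genes of the RefSeq table, 10121 (46.2%) were expressed, and this share is the background for the gene lists below. For members past 2-fold between the libraries, the background is 392 (3.41%) of 11494 genes at FPKM 1 or more in either library. Both libraries held transcripts of Y-linked genes, with Eif2s3y at 21.1 and 19.4, and low Xist at 0.61 and 0.38.

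The dominant transcripts were those of the actin cytoskeleton, iron storage, antigen presentation, complement C1q and lysosomal proteases. Tmsb4x, which encodes the actin-binding peptide thymosin beta 4, was first in both libraries at 17363 and 18559 (mean 17961 ± 846, SD, n = 2). Beta-actin (Actb) followed at 13444 and 16400, the ferritin light chain Ftl1 at 11966 and 12921 and the ferritin heavy chain Fth1 at 8369 and 7675. B2m, the light chain shared by MHC class I molecules, stood at 7334 and 5898. The same 10 genes led in each library and held 14.8% of the FPKM in both. It took 277 genes in replicate 1 and 309 in replicate 2 to reach 50% of all FPKM.

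**Figure D1:**
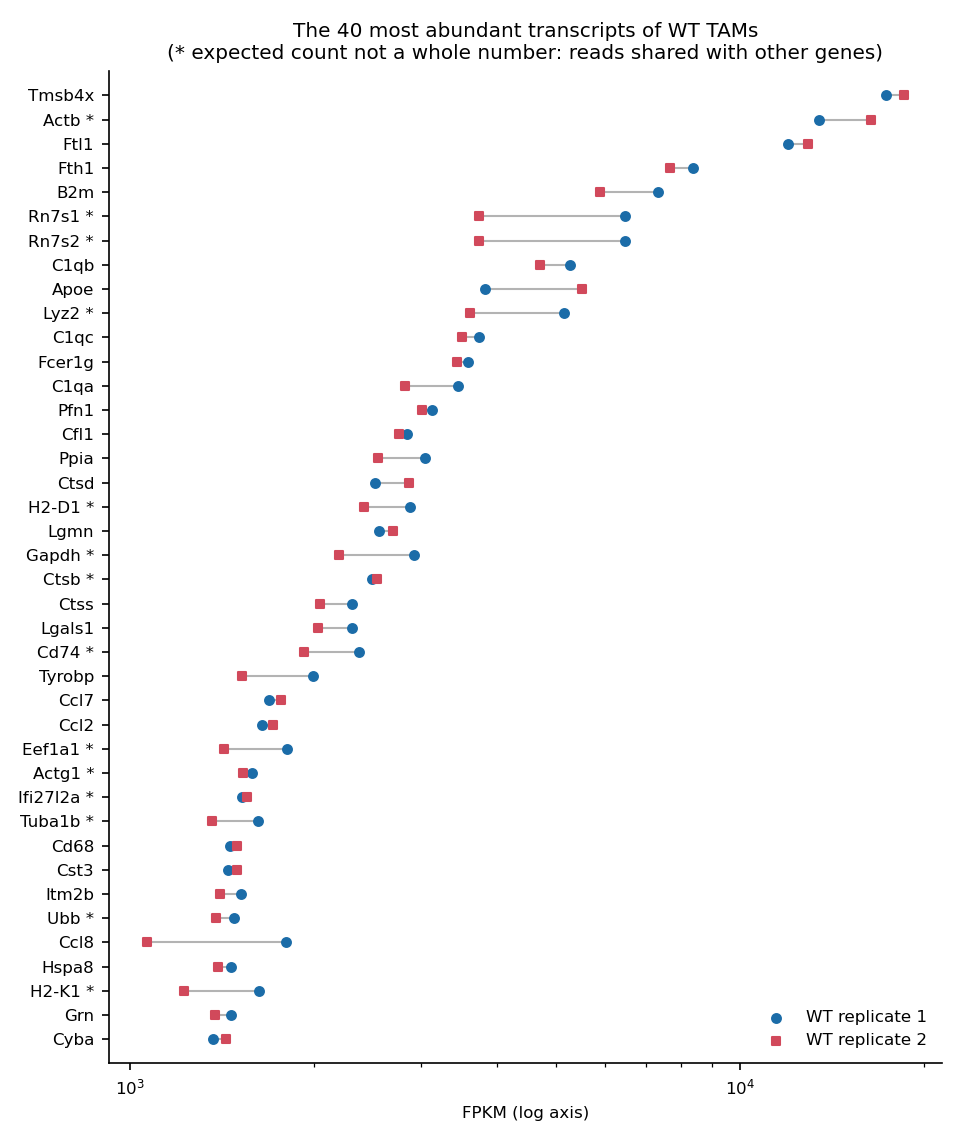
FPKM (log axis) of the 40 genes of highest mean FPKM, with a circle for WT replicate 1 and a square for WT replicate 2. Tmsb4x leads at 17363 and 18559, and the symbols lie close together except for genes such as Rn7s1, Lyz2, Apoe and Ccl8.

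Apolipoprotein E (Apoe), a lipid carrier, reached 3812 and 5503, and lysozyme 2 (Lyz2), an antibacterial enzyme of myeloid cells, 5139 and 3606. Replicate 2 was thus higher for Apoe and replicate 1 for Lyz2, each by less than 2-fold. Expected counts of Lyz2 and Actb are not whole numbers, which marks reads shared with near-identical genes, and their levels are uncertain to that extent. Of all expressed genes 23.5% had shared reads, and not each of them is marked where its values are given. The small cytoplasmic RNA genes Rn7s1 and Rn7s2, copies of the 7SL RNA of the signal recognition particle, had identical values of 6469 and 3733 because their reads were split equally, so neither copy can be told from the other.

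Of the 51 genes at FPKM 1000 or more in both libraries, 8 encode lysosomal proteins, among them the proteases Ctsd at 2526 and 2872, Lgmn at 2558 and 2700, Ctsb at 2492 and 2537 and Ctss at 2309 and 2048. Another 5 belong to the actin list, with profilin (Pfn1) at 3129 and 3016 and cofilin (Cfl1) at 2844 and 2763. The adaptor chains Fcer1g, at 3575 and 3433, and Tyrobp, at 1993 and 1525, carry the signals of Fc receptors and of receptors such as TREM2. Antigen presentation was represented by the class I heavy chain H2-D1 at 2883 and 2422 and by Cd74, the invariant chain of class II, at 2377 and 1927, both with shared reads. Galectin 1 (Lgals1) stood at 2316 and 2032, and the interferon-induced Ifi27l2a at 1529 and 1554. Housekeeping genes completed the 30 most abundant, with Ppia, a cyclophilin, at 3046 and 2552, the glycolytic enzyme Gapdh at 2926 and 2200, the elongation factor Eef1a1 at 1809 and 1427 and gamma-actin Actg1 at 1585 and 1533. The 51 genes had a median transcript length of 1082 bases, against 2668 bases for all expressed genes, and 16 of them had shared reads. Ranked by expected counts, which do not divide by length, 21 of the 30 leading genes were the same as by FPKM. Among the 10 leading by count were Ctsb, with a transcript of 4756 bases, Ctsd and Lgmn, which are not among the 10 leading by FPKM.

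The labelled cell type was checked first against the sort markers. Adgre1, which encodes F4/80, stood at 326 and 371, Itgam (CD11b) at 159 and 111 and Ptprc (CD45) at 105 and 108. Of 18 macrophage markers, 17 were expressed, and 7 of them were at 1000 or more in both libraries, namely the C1q genes, Lyz2, Fcer1g, Tyrobp and the lysosomal glycoprotein Cd68 at 1459 and 1496. Csf1r, the receptor of colony stimulating factor 1, was at 345 and 378. The Fc receptor Fcgr1 followed at 195 and 205 and the integrin chain Itgb2 at 191 and 139. Siglec1 was at 68.3 and 62.6 and the lipopolysaccharide co-receptor Cd14 at 59.7 and 61.6. Lower levels were found for genes of resident macrophages, with Lyve1 at 11.7 and 8.52, the apoptotic cell receptor Mertk at 11.7 and 9.06, the hemoglobin scavenger Cd163 at 5.27 and 4.26 and Timd4 at 8.65 and 2.05. Vsig4, a complement receptor of resident macrophages, was at 0.15 in replicate 1 and 0 in replicate 2.

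Monocyte markers were nearly all expressed (11 of 12). Ly6c2, a surface marker of inflammatory monocytes, was at 228 and 221 with shared reads. Plac8 reached 199 and 157 and the transglutaminase F13a1 135 and 130. The chemokine receptors of classical and patrolling monocytes, Ccr2 at 48.2 and 98.1 and Cx3cr1 at 49.9 and 90.2, were both higher in replicate 2. Both had shared reads. Lower members included Ace at 0.96 and 0.72.

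Transcripts of melanoma cells were present at moderate levels. Of 12 markers 11 were expressed, led by Tyr (70.4 and 75.7, with shared reads), Tyrp1 (54.1 and 49.5), Pmel (52.1 and 41.1), Dct (44.0 and 41.0) and Mlana (40.2 and 38.1), all encoding proteins of the pigment granule. Gpnmb, at 45.3 and 56.2, is also expressed by macrophages. Summed over the list, the level was 323 FPKM in replicate 1 and 320 in replicate 2, so that it was nearly equal in both libraries. These values are far under the C1q genes, but they bear on each gene that melanoma cells also express, and their part in the levels reported here was not tested. Throughout, fewer cells of a type and less RNA per cell cannot be told apart in such bulk samples.

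T cell markers were expressed for 13 of 15 genes, though none was at 10 or more in both libraries. The highest were Cd3g at 18.3 and 8.65, Cd3d at 10.7 and 9.85 and the kinase Lck at 10.9 and 7.05, and the list summed to 79.3 and 62.4 FPKM. Trac had no entry, and it has no curated transcript in the RefSeq table. Natural killer and cytotoxic genes summed to 116 and 55.2 FPKM, with Nkg7 at 48.9 and 27.3 and granzyme B (Gzmb) at 44.0 and 14.4. Their defining receptor Ncr1 was at 0.43 and 0.61. Replicate 1 was higher for all 5 expressed members of the list.

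B cell markers were mostly low, with 3 of 10 expressed. Cd79b, a chain of the B cell receptor, was at 44.6 and 37.4, whereas the B cell factor Pax5 had no entry. Among 12 neutrophil markers 5 were expressed, with the calcium-binding S100a8 at 49.1 and 46.1, Csf3r at 23.3 and 26.3 and Cxcr2 at 21.3 and 29.3. Ly6g, Mpo and Elane had no entry, and Retnlg was at 3.19 and 0. Dendritic cell genes were expressed for 9 of 14, led by Bst2 at 467 and 392, which interferon induces in many cells, and Batf3 at 33.97 and 22.02. The factor Zbtb46 was at 0.4 and 1 and Flt3 at 1.06 and 1.57.

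Stromal transcripts were near the floor. Of 12 fibroblast markers only Thy1 was expressed, at 2.37 and 1.53, and the collagen gene Col1a1 was at 0.21 and 0.37. Pecam1, also found on leukocytes, was the single expressed gene of 10 endothelial markers at 5.16 and 1.81. None of 8 epithelial and keratinocyte markers and none of 9 mast cell and basophil markers was expressed. Hemoglobin transcripts were present and higher in replicate 2, with Hba-a1 at 75.2 and 235 and Hbb-bs at 52.1 and 141, both with shared reads. The red cell gene Alas2 was at 0.64 and 2.59.

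**Figure D2:**
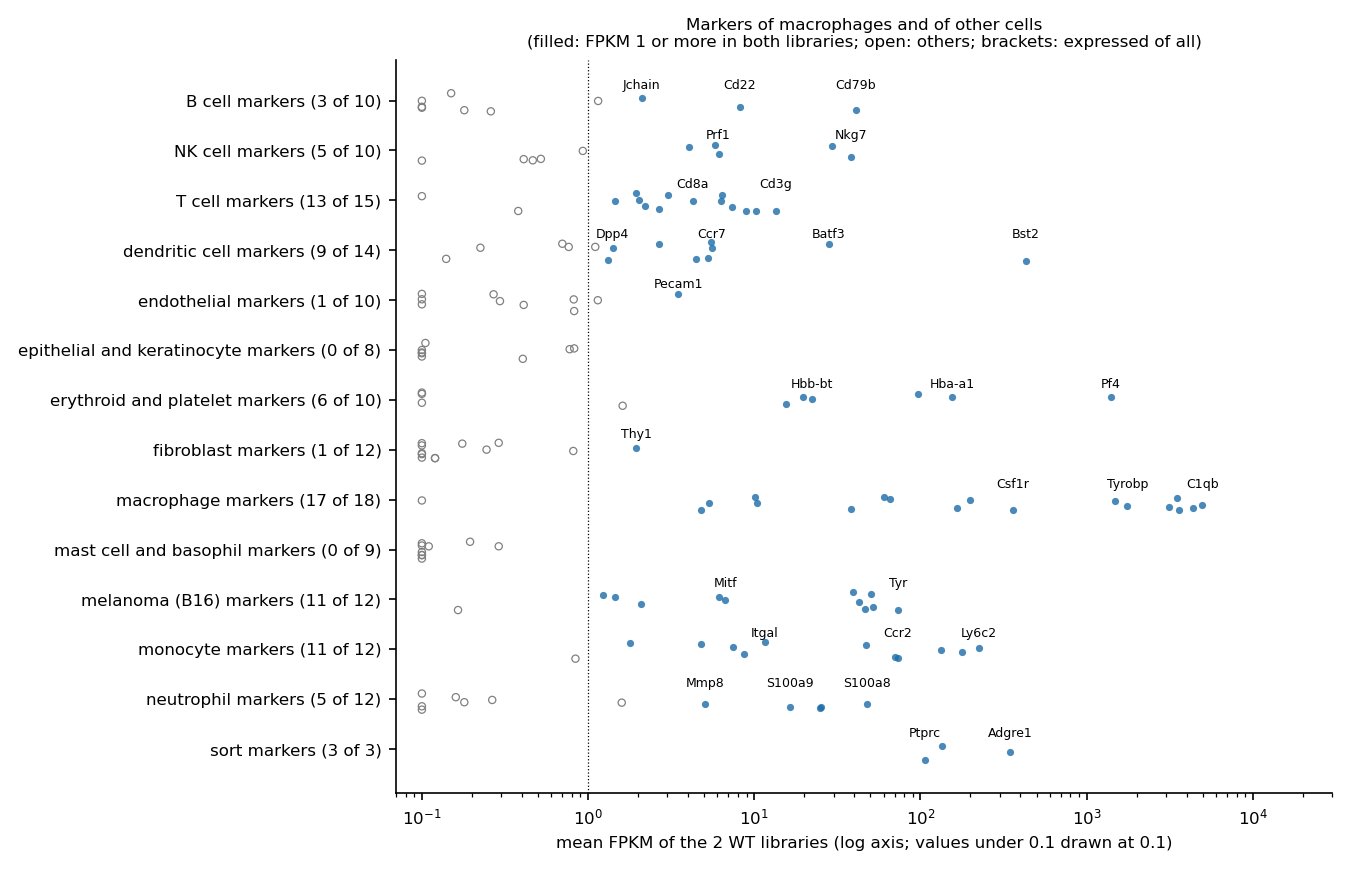
Mean FPKM of the 2 WT libraries (log axis, values under 0.1 drawn at 0.1) for markers of macrophages and of other cells, 1 point per gene. Filled points are expressed in both libraries, open points are all others, and the brackets give expressed of all members. The C1q genes and Tyrobp lie above 1000, melanoma markers reach 70.4 and 75.7 (Tyr), and mast cell and epithelial markers have no filled point.

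Receptors were expressed more often than the background of 46.2%, at 246 of 347 genes (70.9%). 46 had at most 3 expected counts in both libraries, 21 of these with no entry, and 55 lay between. The lists were made for macrophages with earlier results known, and the difference in shares was not tested. Summed over all receptors, they held 3.82% and 3.87% of the FPKM. This share includes abundant products that are not receptors, such as the adaptors Fcer1g and Tyrobp, the lysosomal Cd68 and Laptm5 and the enzyme Hmox1.

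Fc receptors, which bind antibody, and their adaptors led the receptors. Fcgr3 was at 836 and 871 and the inhibitory Fcgr2b at 418 and 465, both with shared reads. Fcgr4 was at 437 and 221, the high-affinity Fcgr1 at 195 and 205 and the don't-eat-me receptor Sirpa at 314 and 362. The inhibitory receptor Lilrb4a stood at 457 and 528 with shared reads. Laptm5, a lysosomal protein that restrains receptor signals, was at 884 and 914. Fcrls, a scavenger-like Fc receptor relative, differed more than 2-fold with 174 and 395. Fcer1a, the mast cell IgE receptor chain, had 0 and 1 expected count, and Siglech, a marker of plasmacytoid dendritic cells, was at 0.25 and 1.96.

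Scavenger and uptake receptors were expressed for 37 of 44 genes. After Cd68 came the heme-degrading enzyme Hmox1, counted with them, at 793 and 584, Trem2, a lipid sensor, at 405 and 524 and Clec12a at 315 and 254. Msr1 (scavenger receptor A) was at 299 and 235 and the mannose receptor Mrc1 at 239 and 289. The iron transporter Slc11a1 stood at 280 and 204 with shared reads, and Fcgrt, the recycling receptor of antibodies, at 169 and 125. 3 members differed by more than 2-fold, all at low level, namely Cd209a at 2.53 and 8.47, Timd4 at 8.65 and 2.05 and Marco at 0.73 and 2.47. The kidney injury molecule Havcr1 and Timd2 had no entry, while Mrc2 and the lipoprotein receptor Vldlr had at most 3 counts.

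Chemoattractant and lipid receptors of the G-protein-coupled class were led by the receptors of the complement fragments, C5ar1 at 344 and 391 and C3ar1 at 245 and 319. The nucleotide receptor P2ry6 was at 173 and 164, the acid sensor Gpr65 at 71.4 and 67.4 and Ptafr, the receptor of platelet activating factor, at 45.7 and 73.8. S1pr2 followed at 33.1 and 34.0, Cysltr1 at 30.4 and 29.9 and P2ry12, known from microglia, at 19.95 and 22.92. Gpr183, which senses oxysterols, was at 9.09 and 24.1, more than 2-fold higher in replicate 2, and Gpr18 at 7.67 and 2.19 was higher in replicate 1. Adora1, Fpr3, Ptger3, the succinate receptor Sucnr1 and Tbxa2r had no entry.

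Chemokine receptors were fewer, with 11 of 23 expressed, a share of 47.8% close to the background. Expressed members included Ccr1, a receptor of CCL3, at 76.9 and 87.5, Ccr2, Cx3cr1, Cxcr2 and the atypical receptor Ccrl2 at 22.7 and 8.92. Cxcr6 was at 8.76 and 7.78 and Cxcr3, a receptor of CXCL9 and CXCL10, at 7.36 and 6.68. Past 2-fold between the libraries were Ccr2, higher in replicate 2 and with shared reads, and Ccrl2, higher in replicate 1. Cxcr1, Ackr1, Ackr2 and Ackr4 had no entry, and Ccr4, Ccr6, Ccr10 and Ackr3 had at most 3 counts in either library.

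Among cytokine and growth factor receptors, 67 of 95 were expressed. The chains of the IL-4 receptor were high, with the common gamma chain Il2rg at 168 and 141 and Il4ra at 115 and 97.3, and Il13ra1 at 14.95 and 13.73. Il10rb reached 114 and 130, and both chains of the interferon gamma receptor were expressed, Ifngr1 at 77.6 and 95.5 and Ifngr2 at 70.4 and 84.9. Nrp1, a co-receptor of vascular growth factors and semaphorins, was at 82.9 and 107 and the tumor necrosis factor receptor Tnfrsf1a at 88.7 and 93.8. Members past 2-fold were Il12rb1 at 12.8 and 5.48 and Tnfrsf9 at 8.88 and 2.01, both higher in replicate 1, and Tnfrsf18 at 1.88 and 4.96. The decoy Il13ra2, Il9r, Pdgfra, Fgfr2 and Notch4 had no entry, and Il1r1, Osmr, Pdgfrb, Il17rb and Il23r had at most 3 counts.

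Sensors of microbes were the most widely expressed receptor group at 35 of 38 genes. None of them passed 2-fold, and at the background of 3.41% a list of this length holds few such genes. Ly86 (MD-1) led at 339 and 218, followed by the nucleic acid sensor Zbp1 at 160 and 108, and the adaptor Sting1 stood at 80.2 and 64.0. Of the Toll-like receptors, those of nucleic acids and lipopeptides were highest, with Tlr13 at 68.7 and 77.8, Tlr7 at 55.4 and 60.8, Tlr2 at 54.5 and 55.5 and Tlr8 at 48.3 and 49.5. Tlr11 and Tlr12, sensors of profilin, were at 0.51 and 0.14 and at 1.75 and 0.91, and Nod2 was at 0.89 and 0.95. C-type lectins included Clec4n (Dectin-2) at 61.5 and 86.9 and Clec7a (Dectin-1) at 30.1 and 22.3.

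Integrins and immune checkpoints completed the receptors. Of 26 integrin chains 12 were expressed, with Itgb2, Itgam and Itgb1 (114 and 95.6) above the rest. Itga6, a laminin receptor chain, was at 5.74 and 14.02, and the platelet chain Itga2b and Itgb6 had no entry. Checkpoint and costimulatory molecules were expressed for 23 of 32, led by the class Ib molecule H2-T23 (493 and 389, with shared reads), Lgals9 (315 and 285) and the don't-eat-me signal Cd47 (206 and 196). Cd274 (PD-L1) stood at 44.0 and 21.7 and Vsir at 81.1 and 66.1, whereas Pdcd1lg2 (PD-L2) was at 0.66 and 1.10. The T cell receptors Pdcd1 at 9.24 and 2.37 and Lag3 at 8.51 and 3.09 differed more than 2-fold. Vtcn1 had no entry, and Tnfsf4, Tnfsf18 and Cd70 had at most 3 counts.

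**Figure D3:**
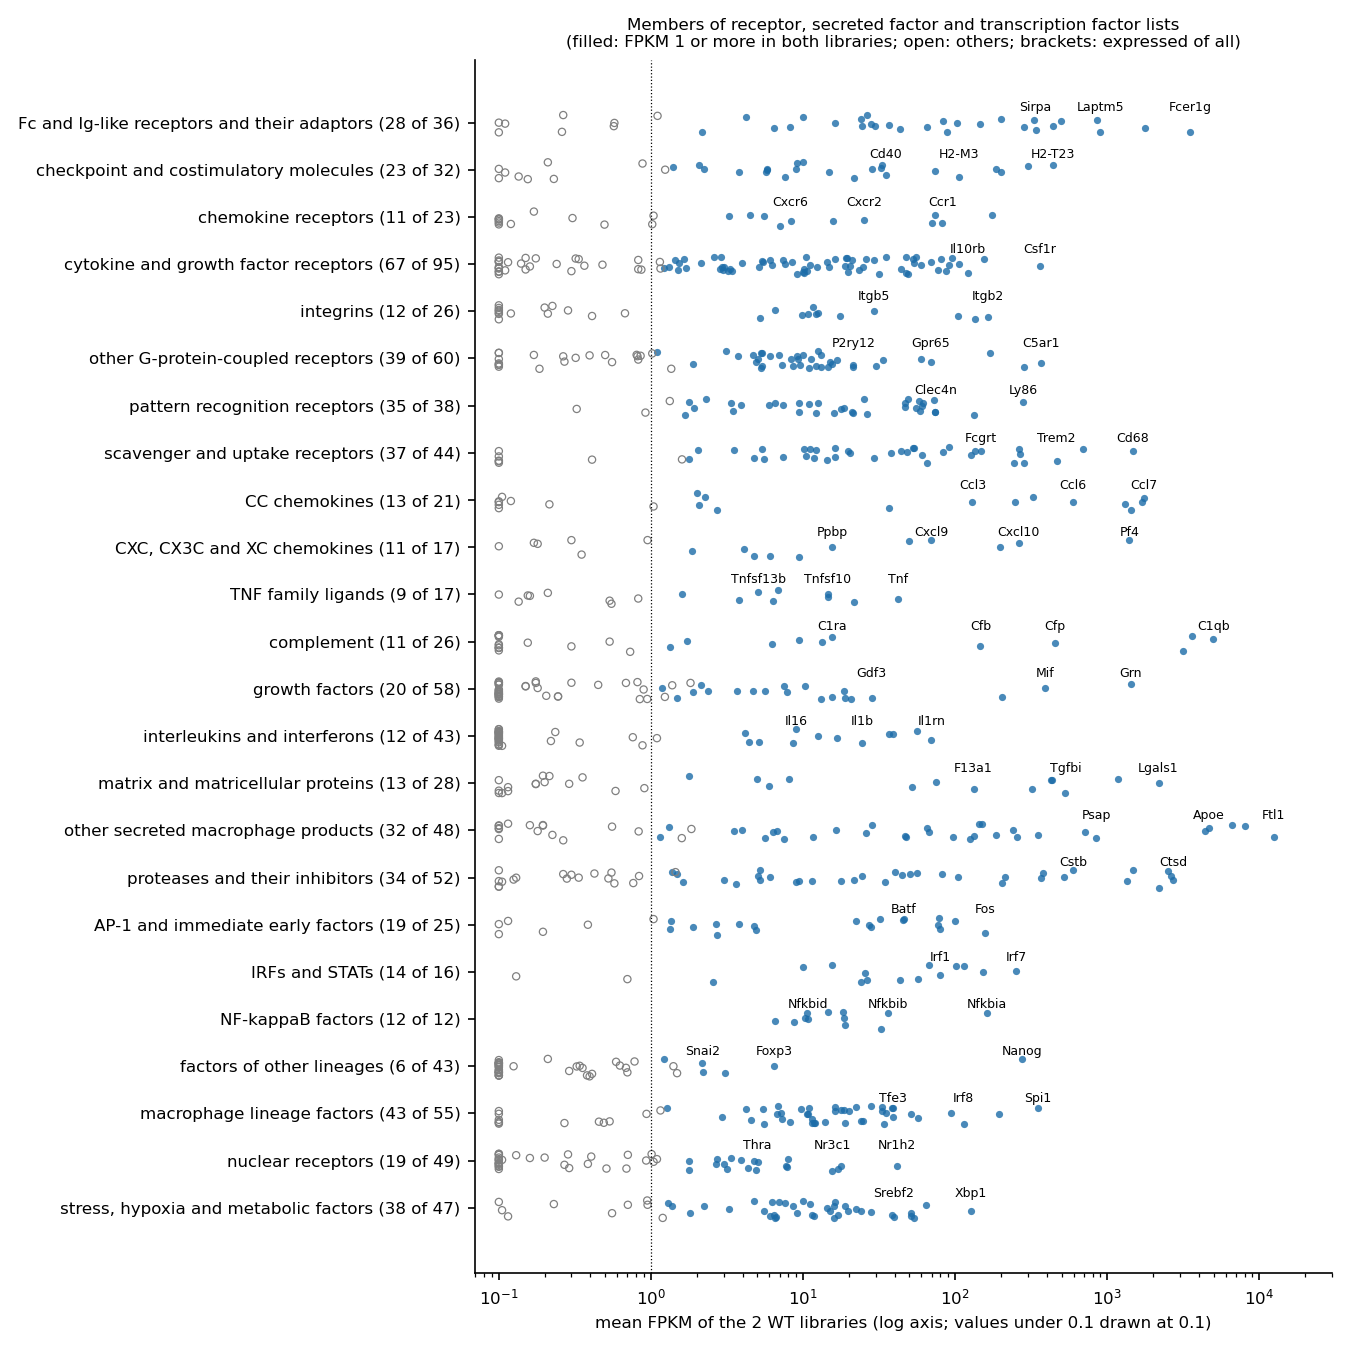
Mean FPKM of the 2 WT libraries (log axis, values under 0.1 drawn at 0.1) for every member of 24 lists of receptors, secreted factors and transcription factors. Filled points are expressed in both libraries and open points are all others, and the dotted line is at FPKM 1. Secreted lists span the widest range, from Ftl1 at 11966 and 12921 to the many interleukins drawn at 0.1, while transcription factors reach a mean of 350.5 (Spi1).

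Of 310 secreted factors 155 (50%) were expressed, next to a background of 46.2%, and 104 had at most 3 counts in both libraries, 45 of these with no entry. Expressed members were abundant, and the class held 14.96% and 14.99% of the FPKM. The list of other macrophage products counts the ferritins and B2m as secreted, although much of both stays with the cell.

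Complement was a case of extremes, with 11 of 26 genes expressed. C1q, which opens the classical pathway and tags debris for uptake, is made of the products of C1qa, C1qb and C1qc. C1qb was at 5266 and 4691, C1qc at 3734 and 3507 and C1qa at 3446 and 2827, while the proteases that partner with C1q were at 17.97 and 13.17 (C1ra) or had no entry (C1s1). The properdin gene Cfp stood at 462 and 438 and factor B (Cfb) at 168 and 124, the central component C3 at 9.44 and 9.48 and C4b at 14.9 and 11.6. The terminal components C7, C8a, C8b, C9 and Hc had no entry. The 3 C1q genes lie side by side on chromosome 4 of GRCm38 in 18.7 kb, from 136880126 to 136898844. RefSeq promoters of GRCm38.p6, 250 bases before to 50 after the start, were found for C1qb and C1qc, and both are shown 5′ to 3′ because C1q led the complement genes. C1qb spans chr4:136886151-136886450 and C1qc chr4:136892865-136893164, both on the minus strand, and capitals mark the core GAGGAA that PU.1 binds, on either strand.
C1qb: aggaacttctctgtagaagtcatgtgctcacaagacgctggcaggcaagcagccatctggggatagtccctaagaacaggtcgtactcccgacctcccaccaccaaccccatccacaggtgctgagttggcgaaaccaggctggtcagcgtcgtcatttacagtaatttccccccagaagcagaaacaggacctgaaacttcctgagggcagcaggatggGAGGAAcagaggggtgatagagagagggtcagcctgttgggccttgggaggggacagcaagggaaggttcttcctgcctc
C1qc: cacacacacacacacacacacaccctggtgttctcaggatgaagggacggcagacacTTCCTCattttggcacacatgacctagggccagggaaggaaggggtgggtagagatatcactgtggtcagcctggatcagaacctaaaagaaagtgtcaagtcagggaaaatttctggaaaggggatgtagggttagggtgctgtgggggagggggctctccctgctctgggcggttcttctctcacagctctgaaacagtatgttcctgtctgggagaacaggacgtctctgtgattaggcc

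GAGGAA occurred once in each, starting 30 bases before the start of C1qb and 193 bases before that of C1qc on the opposite strand. The same core was in 28.3% of all 32851 promoters of the table and in 27.2% of those of expressed genes, shares close to each other. The letters TATAAA of the TATA box, also searched on both strands, were found in neither promoter. CpG dinucleotides numbered 6 in C1qb and 3 in C1qc, against a median of 20 in promoters of expressed genes and 7 in all promoters.

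CC chemokines, which attract monocytes and lymphocytes, were expressed for 13 of 21 genes, and 4 were at 1000 or more in both libraries. Ccl7 was at 1690 and 1771, Ccl2 at 1646 and 1719, Ccl12 at 1224 and 1388 and Ccl8 at 1800 and 1066. Ccl6 followed at 736 and 452, Ccl4 at 384 and 269, Ccl9 at 271 and 227 and Ccl3 at 150 and 109. Ccl2, Ccl7, Ccl12 and Ccl8 belong to a cluster of 6 genes over 144 kb of chromosome 11 of GRCm38, from 82035577 to 82179812, in the order Ccl2, Ccl7, Ccl11, Ccl12, Ccl8 and Ccl1. Within this cluster Ccl11 (eotaxin), between Ccl7 and Ccl12, had 0 and 1 expected count, and Ccl1 at the far end was at 2.17 and 2.33. Neighbours in 1 cluster thus differed from over 1000 FPKM to the floor, in both libraries alike. The M2 chemokines Ccl24 (2.6 and 2.8) and Ccl22 (2.40 and 1.72) were low, Ccl17 had 0 and 1 expected count, and Ccl19, Ccl20, Ccl21a and Ccl26 had no entry. Promoters were found for Ccl12 at chr11:82101595-82101894 and Ccl8 at chr11:82114935-82115234, both on the plus strand, and are shown as members of this cluster, with capitals for GAGGAA and TATAAA, which do not overlap.
Ccl12: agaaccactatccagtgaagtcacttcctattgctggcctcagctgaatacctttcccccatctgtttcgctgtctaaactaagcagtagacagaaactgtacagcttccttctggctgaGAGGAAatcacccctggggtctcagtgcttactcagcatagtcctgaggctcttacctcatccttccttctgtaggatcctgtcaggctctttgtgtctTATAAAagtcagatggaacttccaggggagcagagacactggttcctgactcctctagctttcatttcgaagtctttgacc
Ccl8: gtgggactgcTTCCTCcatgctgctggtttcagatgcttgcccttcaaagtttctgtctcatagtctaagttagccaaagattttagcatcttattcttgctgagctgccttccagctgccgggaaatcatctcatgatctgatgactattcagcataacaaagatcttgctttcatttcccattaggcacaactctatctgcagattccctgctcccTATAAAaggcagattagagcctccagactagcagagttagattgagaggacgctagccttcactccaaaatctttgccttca

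Both held TATAAA, starting 31 bases before the start of Ccl12 and 32 bases before that of Ccl8, and GAGGAA once each, 130 and 240 bases before the start, for Ccl8 on the opposite strand. TATAAA was in 13.6% of all promoters, in 7.19% of those of expressed genes, and in 24.5% of the 49 promoters found for 38 of the 51 genes at FPKM 1000 or more. Each of these 2 promoters had 2 CpG dinucleotides. These matches describe letters in the window and are not bound sites.

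CXC chemokines were led by Pf4, a chemokine of platelets that macrophages also make, at 1182 and 1611. Of the other platelet genes of the marker list, Ppbp was at 10.5 and 20.4, higher in replicate 2 like Pf4, Gp1ba was at 0 and 0.08 and Itga2b had no entry. The list of red cell and platelet markers had 6 of 10 genes expressed, and the part of platelets in the level of Pf4 was not tested. The interferon-induced Cxcl10 was at 299 and 225 and the scavenger ligand Cxcl16 at 185 and 208. Cxcl9, which interferon gamma induces, was at 102 and 37.6 with shared reads, more than 2-fold higher in replicate 1. The neutrophil attractant Cxcl2 was at 46.8 and 52.0 with shared reads, and Cxcl1 at 12.3 and 6.61. Cxcl13 had no entry, and Cxcl17 and Cx3cl1 had at most 3 counts.

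Cytokines were at far lower levels than chemokines. Only 12 of 43 interleukins and interferons were expressed, 27.9% against 46.2%, and 20 had no entry, among them Il4, Il13, Il17a, Il2, Il5, Il34, Ifna2 and Ifna4. The highest were inhibitors, the IL-1 receptor antagonist Il1rn at 71.3 and 68.3 and the IL-18 binding protein Il18bp at 70.0 and 42.3. Below them came Ebi3 at 37.3 and 40.3, Il18 at 35.5 and 37.5, Il1b at 22 and 27.03, Il15 at 17.5 and 16.1, and the anti-inflammatory Il10 at 15.5 and 9.48. Il27 (12.2 and 4.91) and Ifnb1 (6.37 and 2.39) were more than 2-fold higher in replicate 1. Il6 had 0 and 1 expected count, Il12a also 0 and 1, Il23a 1 and 0, and Il12b was at 0.41 and 0.27. Of the tumor necrosis factor family, 9 of 17 were expressed, with Tnf at 47.5 and 36.2 and Tnfsf9 at 18.7 and 24.4. Tnfsf11 (RANKL) and Lta had at most 2 counts in either library.

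Growth factors were expressed for 20 of 58 genes (34.5%), and 24 had at most 3 counts in both. Progranulin (Grn), a lysosomal and secreted protein, was by far the highest at 1463 and 1381, followed by Mif, a cytokine found in most cells, at 492 and 289. Gas6, the bridge between dying cells and the receptor Axl, stood at 168 and 241, with Axl itself at 52.6 and 55.4. Gdf3 (28.9 and 27.7, with shared reads), Osm (22.6 and 14.9), Sema4d (16.6 and 24.6), Pros1 (17.9 and 19.0) and Gdf15 (15.5 and 15.5) came next. Igf1 was at 5.69 and 14.9, more than 2-fold higher in replicate 2, as was Inhba at 0.41 and 2.35, whereas Mdk was at 1.63 and 0. Several factors often named for tumor macrophages were near FPKM 1, with Vegfa at 0.79 and 1.10 and Tgfb1 at 0.57 and 1.22. Csf1 was at 2.39 and 2.33, Csf2 had 2 and 0 counts, and Fgf2 had no entry.

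Proteases and their inhibitors were expressed for 34 of 52 genes. Cystatin C (Cst3), which inhibits the cathepsins, was at 1449 and 1496, Ctsz at 1382 and 1296, Cstb at 604 and 589 and Ctsc at 559 and 485. Matrix metalloproteinases were lower, led by the membrane-bound Mmp14 at 28.5 and 40.4 with shared reads, the macrophage elastase Mmp12 at 20.3 and 15.1 and the collagenase Mmp13 at 13.1 and 9.79. The gelatinases Mmp9 and Mmp2 were at 1.03 and 2.22 and at 0.67 and 0.43. Ctsw, a cathepsin of cytotoxic cells, was at 7.39 and 2.97, and the stefins Stfa2l1 (0 and 2.90) and Stfa1 (0 and 1.15) appeared in replicate 2 alone. Matrix and matricellular proteins were led by Lgals1 and Lgals3 (1362 and 1000), Tgfbi (457 and 603), Lgals3bp (449 and 400) and Sdc4 (323 and 320, with shared reads). Osteopontin (Spp1), a matricellular cytokine, was at 232 and 633. Fibronectin (Fn1) was at 6.21 and 9.93, and the collagens of the list stayed under 1.

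Other macrophage products included prosaposin (Psap) at 947 and 739, the selenium carrier Selenop at 695 and 733 and S100a4 at 297 and 398. Arginase 1 (Arg1), which breaks down arginine and is used as an M2 marker, was at 378 and 134, so that replicate 1 was 2.82-fold higher by share of counts (95% interval 2.61 to 3.04, exact binomial, for counting error only). Nos2, the competing nitric oxide synthase, was at 3.05 and 0.64. Retnla had 0 and 1 expected count, Chil4 0.85 and 0, and Hamp, Ptx3, Saa1 and Saa2 had no entry.

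Transcription factors were expressed for 148 of 241 genes (61.4%, background 46.2%), and together they held 0.821% and 0.803% of the FPKM. 54 had at most 3 counts in both libraries, 29 of these with no entry. Spi1, which encodes PU.1, led the macrophage lineage factors with 352 and 349. Id2 followed at 217 and 174, Irf8 at 118 and 109 and Klf6 at 95.6 and 93.1. Maf was at 39.2 and 75.3 with shared reads. Etv5 stood at 50.1 and 52.2, and the lysosomal regulator Tfe3 at 37.5 and 41.0. Lyl1, at 21.6 and 46.4, was the single member past 2-fold. Gata6 and Sall1, factors of peritoneal macrophages and microglia, had no entry, nor had Gfi1 and Id4, and Myb and Tal1 had at most 3 counts.

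Interferon regulatory factors and STATs were expressed for 14 of 16 genes, led by Irf7 at 263 and 243 and Irf5 at 157 and 148. Irf1 was at 102 and 57.8, Stat6 at 64.1 and 71.4 and Stat3 at 56.8 and 57.4. Irf4, a factor of the M2 state, was at 0.83 and 0.57. All 12 NF-kappaB factors were expressed, the inhibitor Nfkbia highest at 188 and 134, then Nfkbib at 40.9 and 31.2 and the subunit Rela at 32.7 and 32.4. Immediate early factors were led by Fos at 201 and 114, Junb at 114 and 86.0, Atf3 at 102 and 55.2 and Atf4 at 89.3 and 69.3.

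Nuclear receptors, which respond to lipids and hormones, were low and fewer (19 of 49, 38.8%). The oxysterol receptors Nr1h2 (39.3 and 44.0) and Nr1h3 (21.1 and 14.6), Pparg (20.87 and 13.03) and the glucocorticoid receptor Nr3c1 (15.8 and 15.4, with shared reads) were highest. Ppara, Pgr and the Esrrb and Esrrg genes had no entry. Stress and metabolic factors were expressed for 38 of 47, with Xbp1 at 121 and 134, Nfe2l2 (NRF2) at 59.0 and 70.4, Trp53 at 51.8 and 55.8 and Hif1a at 29.1 and 26.7. Its relative Epas1 was at 0.92 and 0.97.

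Factors of other lineages were expressed for 6 of 43 genes (13.95%), and 17 had no entry, among them Pax5, Gata1, Gata4, Myod1, Sox2 and Pou5f1. The exception was Nanog, a factor of pluripotent stem cells, at 255 and 299, a level between those of Id2 and Spi1. Its expected counts of 2466 and 2688 were not whole numbers, so that reads shared with other sequences entered them and the level is uncertain. Foxp3 was at 5.51 and 7.37, and Sox10 of the melanocyte lineage at 1.06 and 1.39.

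Of 12 genes listed for the IL-4 receptor, its kinases, STAT6, acetyltransferases and Trim proteins, 11 were expressed. The exception was Trim24, which was under FPKM 1 in replicate 2. Irf4, an M2 gene that the study examined, was not expressed either, at 0.83 and 0.57. Besides Il4ra, Il2rg and Stat6, Jak1 was at 45.0 and 44.1, Tyk2 at 12.4 and 11.8 and Jak3 at 11.7 and 12.8. The acetyltransferases Crebbp (CBP) and Ep300 were at 5.41 and 8.29 and at 4.34 and 5.18. Trim24, the ubiquitin ligase and reader protein of the study, was at 1.02 and 0.37, under Trim28 at 23.4 and 26.1 and Trim33 at 1.78 and 1.99. Of 17 genes known to be induced by IL-4, 12 were expressed, led by Mrc1 and Arg1, with Tgm2 at 115 and 53.0, Clec10a at 50.1 and 38.4, Chil3 at 32.9 and 61.2 and Mgl2 at 11.7 and 11.8. Egr2 was at 3.95 and 5.82, Klf4 at 3.57 and 2.32 and Socs1 at 28.5 and 13.1. Retnla, Ccl17 and Alox15 had at most 1 count in either library. Replicate 1 was higher for Arg1, Tgm2 and Socs1 and replicate 2 for Cd209a, each past 2-fold.

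Genes of cell division were expressed throughout, 24 of 24 for mitosis and 22 of 22 for DNA replication. Pcna, the replication clamp, was at 201 and 179, Birc5 at 156 and 149 with shared reads, and Cdk1 at 36.1 and 35.6. Neither list had a member past 2-fold, and at the background of 3.41% lists of this length hold few such genes. All 36 interferon-induced genes were expressed, with Ly6e at 1352 and 1120 and Ifitm3 at 1305 and 1102, and all 41 lysosomal genes. MHC class II had 10 of 11 expressed, with H2-Ab1 at 912 and 652, H2-Aa at 620 and 396 and the class II transactivator Ciita at 3.91 and 3.92, while H2-Ea had no entry. The 81 expressed of 85 ribosomal protein genes held 6.66% and 5.79% of the FPKM.

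Agreement between the replicates was high for abundant genes and fell with the count. Across 15761 genes the Pearson correlation of log2(FPKM + 1) was 0.983 and the Spearman correlation 0.964, which describe genes and not independent replicates. Of the 100 most abundant genes in replicate 1, 93 were among the 100 of replicate 2, and of the 1000 most abundant, 927. The biological coefficient of variation, the spread between libraries beyond counting error, was 14.9% over 10856 genes (edgeR, intercept alone). The libraries differed by more than counting error, with a chi-square of 9.23 per degree of freedom, and were counted as 2 samples.

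Of 11494 genes at FPKM 1 or more in either library, 392 (3.41%) differed more than 2-fold on the FPKM + 1 scale. 186 (1.62%) were higher in replicate 1 and 206 (1.79%) in replicate 2. Agreement by count was taken on another scale, the scaled count ratio without a pseudocount. It covers only genes counted in both libraries, so genes counted in 1 library alone are left out. Between 3 and 10 counts 54.9% of these genes lay within 2-fold, between 30 and 100 counts 94.9%, and above 3000 counts 99.4%. The SD of the log2 ratio fell from 1.32 in the lowest of these bins to 0.29 above 3000 counts, where counting alone gives 0.029, so that depth was not the limit there. None of the 51 genes at FPKM 1000 or more differed past 2-fold, and 6 of the 860 at 100 or more did.

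**Figure D4:**
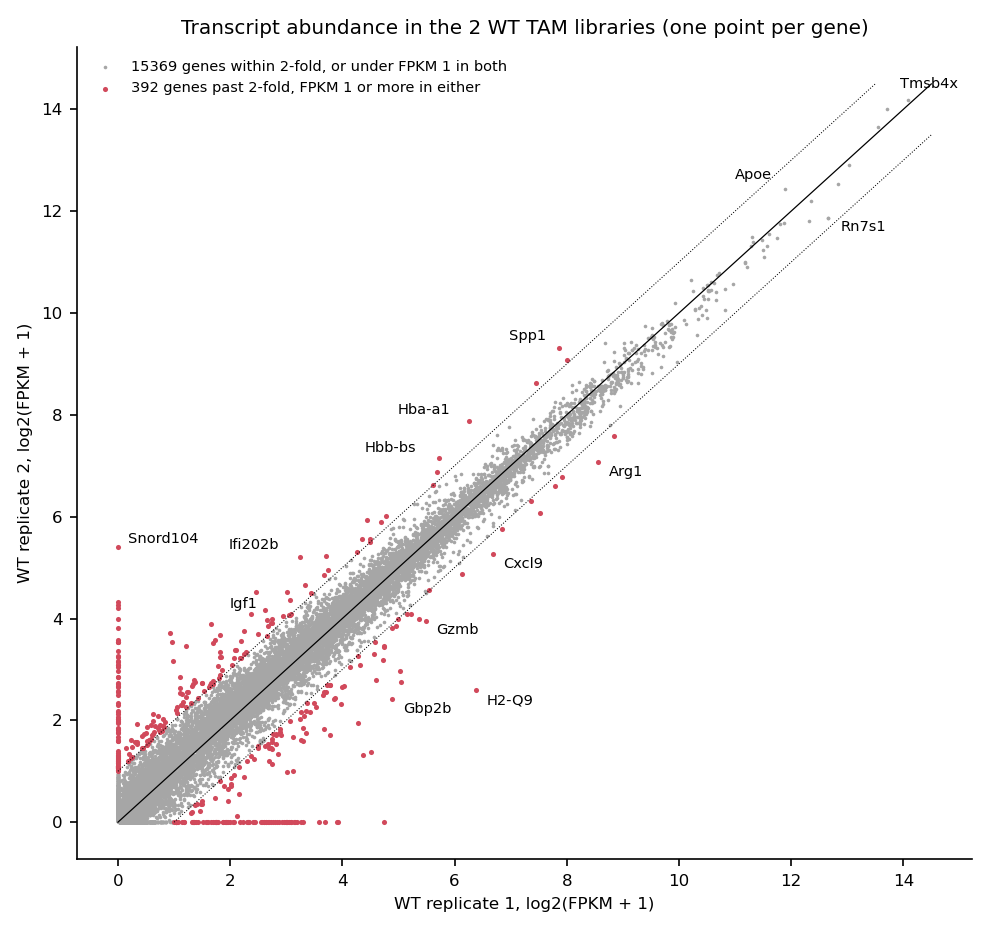
log2(FPKM + 1) of each gene in WT replicate 1 against WT replicate 2, with the line of equality and dotted lines at 2-fold. 392 genes in red differ more than 2-fold with an FPKM of 1 or more in either library, most of them at low level, and Spp1, Arg1, Hba-a1 and Cxcl9 are among the abundant ones.

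At a mean FPKM of 10 or more, 67 of 5755 genes differed past 2-fold, 36 higher in replicate 1 and 31 in replicate 2. Among those highest in replicate 1 were class I genes of the MHC, H2-Q9 at 82.3 and 5.04 and H2-Q8, but their reads are shared with near-identical neighbours and H2-Q7 went the other way at 41.6 and 71.0. The guanylate binding protein Gbp2b was at 28.6 and 4.38 with shared reads and Cox4i2, a subunit of cytochrome oxidase used in low oxygen, was 6.50-fold higher by share of counts (95% interval 3.22 to 14.9). Gzmb was 3.05-fold higher (2.41 to 3.90). The remaining genes of the 10 were the pseudogenes Rpl31-ps12 and Apoo-ps, the histone H4c17 and the short RNAs Mir1982 and Snord73a. The short RNAs rested on a few counts, and their intervals include a ratio of 1.

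In the other direction Spp1 had a ratio of 0.368 for replicate 1 over replicate 2 (95% interval 0.347 to 0.390) and Ifi202b, an interferon-induced DNA sensor, one of 0.235 (0.179 to 0.304). Hba-a1, at 0.320 (0.270 to 0.376), and Akr1b8, Sap25, Morf4l1b, 6030440G07Rik and the RNA Bc1 also belonged to the 10, all with shared reads, as did Snord22 and Snord104, whose FPKM of 0 and 41.4 came from few counts. These intervals cover counting error only.

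The median log2 ratio of replicate 1 over replicate 2 was -0.06 over all expressed genes, of which 42.1% were higher in replicate 1 and 57.7% in replicate 2. List medians are given beside these values as a description, and no list was tested. For hypoxia and glycolysis genes it was 0.46, with 25 of 28 expressed members higher in replicate 1, such as Aldoa at 1274 and 759, Ldha at 1448 and 953 and Slc2a1, a glucose transporter, at 110 and 62.8. Adm, at 8.61 and 3.51, alone passed 2-fold. MHC class II had a median of 0.44 (7 of 10 higher), MHC class I 0.29 (11 of 14) and ribosomal proteins 0.27 (77 of 81). Medians above 0 were common, at 25 of the 38 lists with 10 or more expressed members, such as CC chemokines at 0.26. Cytokine and growth factor receptors, at -0.10 with 46 of 67 higher in replicate 2, lysosomal genes, at -0.03 but 0.035 on TMM-scaled CPM, and melanoma markers, at 0.03, lay close to the median of all genes. For markers of other cells, medians over expressed members were 1.02 for natural killer and cytotoxic genes (5 genes) and 0.23 for T cells (13 genes). They were -0.45 for neutrophils (5 genes) and -1.03 for red cells and platelets (6 genes). Members of a list were spread, from 0.12 (Klrd1) to 1.54 (Gzmb) for the natural killer and cytotoxic genes. Expressed neutrophil genes ran from -0.92 (Mmp8) to 0.09 (S100a8). Members not called expressed are left out of these medians, such as Ncr1 at -0.17, Klre1 at 0.67 and the neutrophil gene Retnlg at 2.07. Retnlg, with 9 and 0 expected counts, was the single neutrophil marker past 2-fold and was higher in replicate 1. The part of these other cells in the values of the other lists was not tested. With 1 library on each side, the difference between mice and that between preparations cannot be told apart.

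**Figure D5:**
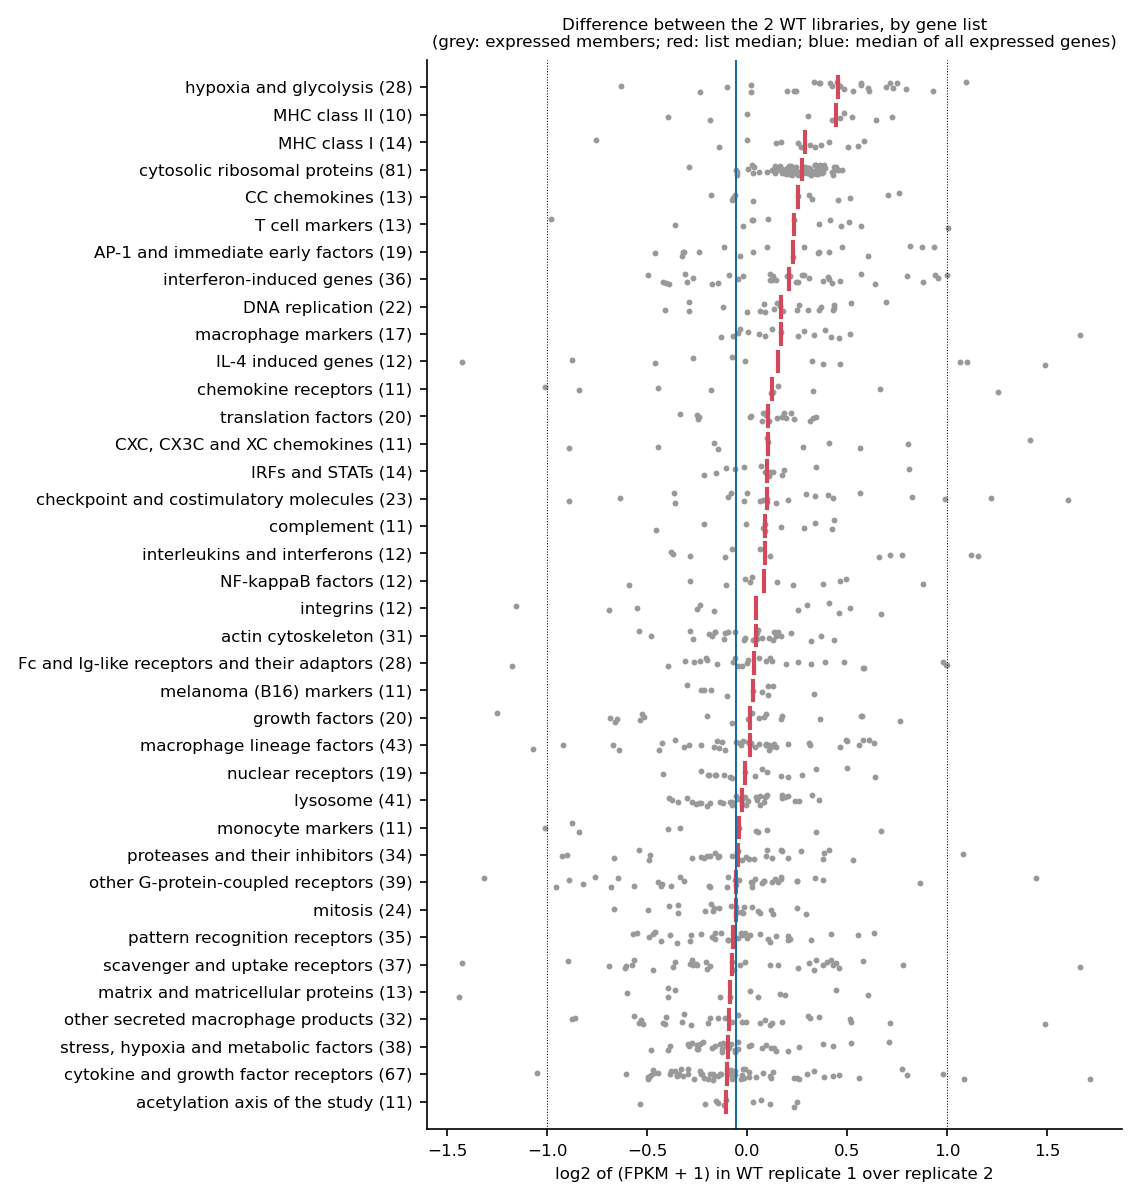
log2 of (FPKM + 1) in WT replicate 1 over replicate 2 for the expressed members (grey) of 38 lists with 10 or more of them, with list medians in red and the median of all expressed genes in blue. Hypoxia and glycolysis genes lie farthest to the right with a median of 0.46, and few members pass the dotted lines at 2-fold.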

How the data were processed

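RNA of 2 WT TAM libraries was analysed, and the Trim24-deficient libraries were not used here. Per the labels and the study's methods, Bowtie placed reads on GRCm38/mm10 and RSEM estimated abundance (versions not given in the sources used here). The authors deposited unscaled expected counts, whole for 77.0% and 76.6% of values, an FPKM scaled to transcript length and library total, and the transcript length in bases. No FPKM under 0.01 is listed, so depth limits absence: 3 counts equal 0.623 and 0.670 CPM, counts scaled to a common library total. Entrez identifiers were matched to RefSeq symbols for 15723 of 15761 genes, positions are of GRCm38.p6, and 2 listed symbols were not matched.

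Levels were described from FPKM as deposited. Expected counts were rounded for edgeR 4.0.16 in R 4.3.3 (filterByExpr, TMM factors of 0.980 and 1.02), which was also run on simulated counts. Fold between replicates used a pseudocount of 1 on FPKM. No p-value was computed with 1 group. Named genes are the 30 most abundant, up to 8 leading members of each list, defining members with at most 3 counts, members past 2-fold, the 10 most divergent each way at a mean FPKM of 10 or more, sort and macrophage markers and genes the study names for TAMs, and further members were named after their values were seen. Members and lists were chosen with earlier results of these data known. Alternatives were other FPKM, count and TPM limits, other scalings, filters and pseudocounts, DESeq2 1.42.0, and each library left out. Some genes are not reported here.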

Additional observations from a re-analysis of the deposited data

How the results depend on the processing

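No paired analysis was possible because the values come from no test and from 1 group. The number of expressed genes, 10646, stayed within 1.5 times at every other limit (7377 at FPKM 5 to 11510 at FPKM 0.5), and lay between 10950 and 11190 with 1 library left out. Expressed receptors, secreted factors and transcription factors also stayed within 1.5 times under the FPKM limits and with 1 library left out (250 to 255, 164 to 165 and 152 to 156). The share of the 10 leading genes, 14.8% of FPKM, was 9.91% of expected counts, 15.8% without ribosomal protein genes and 14.52% without Rn7s1 and Rn7s2 (chosen after seeing the data), and 14.8% in each library alone. The biological coefficient of variation was 14.9% with DESeq2 size factors, 15.2% with library totals alone, 15.7% without a filter and 14.9% with at least 10 counts in both. The median gene-wise dispersion of DESeq2 sat at its lower bound, and its square root, the coefficient of variation, was 0.01%. Pearson's correlation was 0.957 with a pseudocount of 0.1, 0.983 over expressed genes and 0.978 on log2 CPM. Genes past 2-fold numbered 392, and 402 on TMM-scaled CPM, but 208 at FPKM 5, 107 at FPKM 10, 822 with a pseudocount of 0.1 and 1353 past 1.5-fold, since the limit and the pseudocount set how many low genes count. On TMM-scaled CPM, chosen after seeing the data, the median log2 ratio of lysosomal genes was 0.035 and that of mitosis genes 0.0048, both of opposite sign to the FPKM values and near 0. No correlation, coefficient of variation or fold can be had with 1 library left out. Between 3 and 10 counts, counting error alone gave an SD of 1.04 in the log2 ratio, so that a 2-fold difference was not detectable there.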
